A study of Mus musculus with 6 samples.

Results

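Opposite-strand transcripts are named after the gene they face: the name is that of the partner gene followed by os, sometimes with a number. They were chosen here as the rows of the deposited table whose name ends in os, os1, os2 or os3 and whose name without that ending is also a gene of the table. This gave 290 of the 34745 rows, or 288 symbols, since Dlx6os1 and Nkx2-2os each stand on 2 rows. Their 249 partner rows served as the comparison only. Ccdc142 stands on 2 rows, so there were 291 pairs of a transcript and a partner. The study sequenced RNA from the prostate of 6 young adult male C57BL/6 mice. The 3 T + E2 mice received testosterone and oestradiol from pellets under the skin, which release the hormones slowly and were renewed each month, over 12 weeks, and the 3 control (CON) mice had the skin cut and sutured only. Both agents were given together, so their parts in any difference cannot be told apart. The mice were intact males, used for sequencing alone.

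A transcript read from the DNA strand opposite a gene is called antisense when it runs across that gene. When it starts close to the gene's own start and runs the other way, both are called a divergent or bidirectional pair. Some antisense transcripts are known to silence or to support their neighbour, many have no known effect, and a few rows that carry the os ending encode proteins of their own. The prostate is a gland whose ducts are lined by secretory luminal cells over basal cells and wrapped in smooth muscle, and androgens and oestrogens both act on it.

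The names held up against the annotation. In GENCODE release M21 on build GRCm38 all 291 pairs lay on the same chromosome and on opposite strands, and 274 of the 290 transcripts had the same start and end as in the table. The annotation typed 251 of them as antisense, 12 as processed transcript, 11 as lincRNA and 10 as protein coding. A further 22 names with the same ending, such as Fos and Nos3, were no members because the name without the ending is no gene of the table.

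Library totals lay between 14816146 and 16555549 counts, and a floor of 3 counts corresponded to 0.183 to 0.208 CPM (counts scaled to library size with edgeR's TMM factors). The members took 0.0582 to 0.0718% of all counts, 8803 to 11507 per mouse. Several marker lists moved with the treatment. The summed level of 6 luminal markers was 15800 to 20500 CPM in CON and 3840 to 4480 CPM in T + E2, with 3 of the 6 lower, and that of 4 urothelial markers was 422 to 642 against 1370 to 1700 CPM, with 3 of the 4 higher. For 5 smooth muscle markers it was 3350 to 4180 against 2910 to 3200 CPM, and for 4 neuron and glia markers 149 to 180 against 36.6 to 91.3 CPM, each with 2 lower. For 4 endothelial markers the sum was 88.8 to 128 against 128 to 153 CPM, almost touching, with 1 higher. Seminal vesicle markers summed to 10200 CPM in CON 2 and 642 CPM in T + E2 2, against at most 3.77 CPM in the other 4 mice. Adipocyte markers summed to 331 CPM in CON 2, against 62.8 and 84.2 CPM in the other CON mice and 42.9 to 93.9 CPM in T + E2. In bulk tissue fewer cells of a type and less RNA per cell cannot be told apart, and the part of cell makeup in the results below was not tested.

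The promoter sequences that the called transcripts share with, or keep apart from, their partners are shown first. They come from RefSeq windows of 300 bases on GRCm38.p6, from 250 before to 50 after a start. Of the 288 member symbols 170 had such a window, among them 7 of the 10 transcripts called below. Capitals mark any of the motifs searched, on both strands: AGAACA (a short site of the androgen and glucocorticoid receptors), GGGCGG (the GC box), CCAAT (the CAAT box), TATAAA (the TATA box) and the full receptor sites named further on. The first sequence is the whole stretch between the start of Brip1 and the start of Brip1os, chr11:86201194-86201369, plus strand. It belongs to no annotated exon of a coding sequence or UTR, and it is shown because the transcript with the smallest adjusted p starts at its right end while its partner starts at its left end.
Brip1os/Brip1: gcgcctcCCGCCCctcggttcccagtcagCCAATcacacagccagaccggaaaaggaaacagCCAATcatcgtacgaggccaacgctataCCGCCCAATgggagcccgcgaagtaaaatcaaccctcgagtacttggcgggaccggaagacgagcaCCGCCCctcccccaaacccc
Its 176 bases are 61.9% G or C, with 15 CG pairs, and hold 3 matches of GGGCGG and 3 of CCAAT, with an overlap between the motifs at one place. Among all 32851 RefSeq windows, 30% held GGGCGG and 27.1% held CCAAT in the 176 bases before the start. The next windows belong to the 2 falling transcripts whose call held in every fit with a mouse left out, and to the most abundant member. Tbx3os2 lies at chr5:119691169-119691468, minus strand, with its RefSeq start at the deposited start.
Tbx3os2: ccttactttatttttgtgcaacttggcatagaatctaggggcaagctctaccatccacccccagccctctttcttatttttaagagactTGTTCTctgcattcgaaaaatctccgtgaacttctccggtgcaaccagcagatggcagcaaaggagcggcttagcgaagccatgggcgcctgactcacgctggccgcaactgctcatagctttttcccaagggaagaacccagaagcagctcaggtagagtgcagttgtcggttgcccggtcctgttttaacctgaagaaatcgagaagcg
Ttc39aos1 lies at chr4:109406208-109406507, minus strand, with its RefSeq start 102 bases upstream of the deposited one.
Ttc39aos1: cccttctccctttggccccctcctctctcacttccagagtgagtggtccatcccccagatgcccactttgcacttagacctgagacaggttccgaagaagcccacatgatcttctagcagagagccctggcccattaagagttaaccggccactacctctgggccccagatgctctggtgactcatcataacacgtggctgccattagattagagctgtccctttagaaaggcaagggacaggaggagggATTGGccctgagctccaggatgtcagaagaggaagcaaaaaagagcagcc
Hoxa11os lies at chr6:52244993-52245292, plus strand, with its RefSeq start 850 bases downstream of the deposited one. This window therefore lies inside the counted row and not before its deposited start.
Hoxa11os: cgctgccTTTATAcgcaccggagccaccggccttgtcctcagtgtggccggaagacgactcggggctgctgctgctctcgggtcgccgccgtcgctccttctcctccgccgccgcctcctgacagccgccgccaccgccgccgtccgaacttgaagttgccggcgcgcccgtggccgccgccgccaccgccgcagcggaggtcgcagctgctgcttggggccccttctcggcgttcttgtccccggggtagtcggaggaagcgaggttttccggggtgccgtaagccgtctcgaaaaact

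Of the 300 bases of the Hoxa11os window, 282 are coding sequence of Hoxa11 on the other strand, and 41 CG pairs make it the richest of the 4 sequences. AGAACA was found in the Tbx3os2 window only among the 7 called transcripts with a window, and in 19.0% of the member windows and 19.0% of all windows. Neither the full androgen receptor site (AGAACA, then 3 bases of any kind, then TGTTCT, which contains the short site) nor the full oestrogen receptor site (GGTCA, then 3 bases of any kind, then TGACC) was found in the 205 member windows. These full sites are also rare elsewhere, at 0.00913% and 0.07% of all windows. GGGCGG was found in 28.3% of member windows against 35.7% of all, CCAAT in 33.2% against 37.4% and TATAAA in 7.8% against 13.6%. A match is a run of letters and no measured binding.

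Most opposite-strand transcripts were at or below the detection floor in the prostate. No mouse had a count on 118 of the 290, and 59 more had at most 3 counts in any mouse. Another 52 had over 3 counts in some mouse but did not pass the filter on low counts (edgeR filterByExpr, minimum count 10), and 61 were tested. Detection differed by position. Of the 124 pairs with the transcript inside its partner, 69 had no count on the transcript and 9 had a tested one. Of the 42 pairs with the transcript upstream and facing away 14 were tested, and of the 81 in which it overlaps the partner's start 23 were. A transcript inside a gene can share exon bases with it, the strand setting of the counter is not given in the sources used here, and the part of such sharing in these counts was not tested. Of the 8 transcripts with 70% or more of their exon bases shared with the partner, 6 had no counts and 1, Arhgap27os2, was tested.

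**Figure D1:**
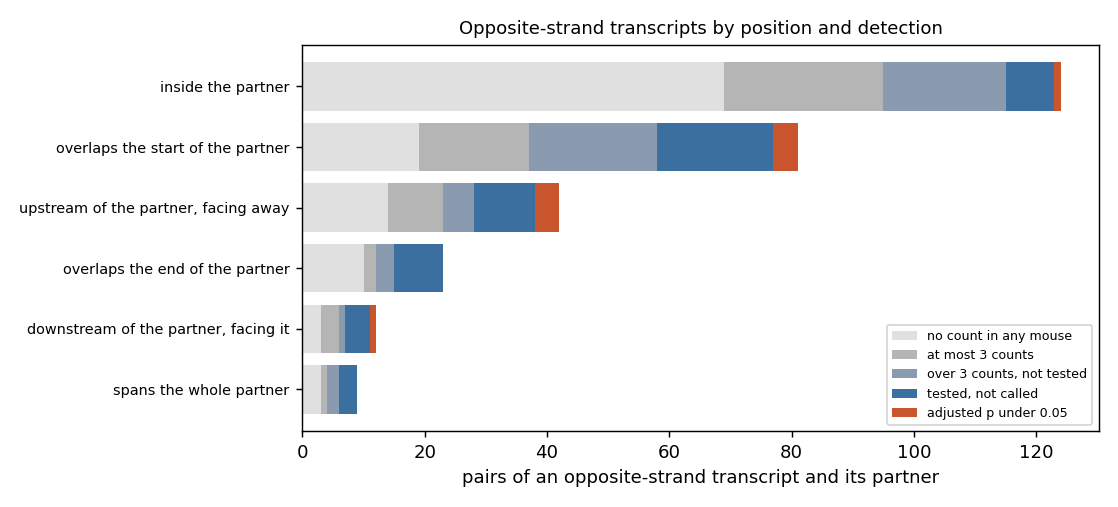
Pairs of an opposite-strand transcript and its partner gene (horizontal axis, number of pairs, 291 in all) by the position of the transcript (vertical axis), coloured by how far the transcript was detected. Of 124 transcripts inside the partner 69 had no count in any mouse, while 14 of 42 upstream ones and 23 of 81 that overlap the start were tested.

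Among the 61 tested transcripts, 10 (16.4%) differed between T + E2 and CON at an adjusted p under 0.05 (edgeR quasi-likelihood test, Benjamini-Hochberg over all 15580 genes tested), against 19.6% of all genes tested. 5 rose, among them Brip1os, Wdr83os, Cep83os and Mkln1os, where 10.4% of all genes rose. Tbx3os1, Tbx3os2, Ttc39aos1, Rapgef4os3 and Hoxa11os fell, where 9.25% of all genes did. With a log2 fold change beyond 1 in size as well, 5 (8.2%) remained against a background of 7.64%, 4 higher, among them Brip1os, Wdr83os and Mkln1os, and 1 lower, Rapgef4os3. Of all 15580 genes tested, 665 were higher and 526 lower at this threshold. The CPM of the groups did not overlap for 18 (29.5%) of the 61 tested transcripts, 5 higher and 13 lower. Among all 15580 genes tested the share was 40.7%, with 3123 higher and 3225 lower. The median log2 fold change of the tested transcripts was -0.0707 and that of all genes -0.00207. These shares lay near the background or below it. The depth behind them was lower, with a median of 29.7 counts per mouse for a tested transcript and 298 for a tested gene. Leaving out a mouse lowered the first count to 6 without CON 1, CON 2 or T + E2 3 and to 4 without CON 3, T + E2 1 or T + E2 2. The second became 3 without CON 1, CON 2 or T + E2 3, 2 without CON 3 or T + E2 1, and 1 without T + E2 2. A fit on fewer mice has less power for every gene, and the share of all genes called in these fits is not given here. Whether the members lost more calls than other genes did was not tested.

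**Figure D2:**
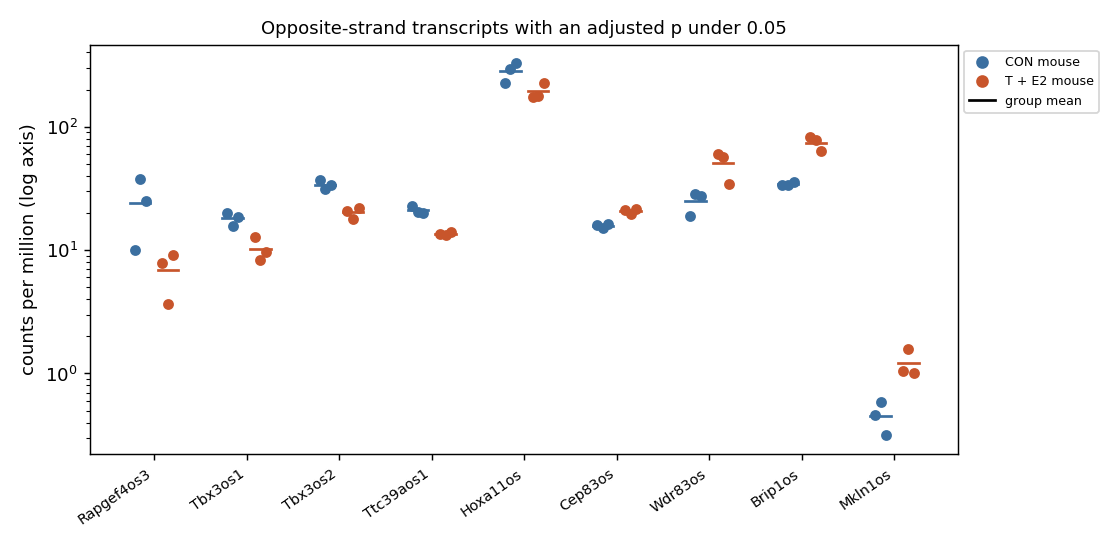
CPM (vertical log axis) of 9 of the opposite-strand transcripts with an adjusted p under 0.05, one point per mouse and a bar at each group mean. Groups are apart for all of them except Hoxa11os, where the highest T + E2 mouse (227 CPM) lies just above the lowest CON mouse (226 CPM).

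Brip1os gave the firmest difference. Its partner Brip1 encodes a DNA helicase that binds BRCA1 and acts in the repair of DNA crosslinks. Brip1os (chromosome 11, 86201370 to 86304443, plus strand, antisense type) starts 177 bases from the start of Brip1 and runs the other way, so the pair is divergent and shares no exon base. Brip1os stood at 34.0, 33.8 and 35.4 CPM in the CON mice and at 82.6, 77.5 and 63.3 CPM in the T + E2 mice. Every T + E2 mouse lay well above every CON mouse, and the CON mice hardly differed. It rose by 1.11 on the log2 scale (SE 0.11, adjusted p = 0.000553, edgeR), a 2.17-fold change. Brip1 itself was scarce, at 0.993, 1.25 and 1.57 CPM in CON and 1.73, 1.77 and 1.27 CPM in T + E2. Its groups overlapped, with a log2 fold change of 0.32 (SE 0.29, adjusted p = 0.48). The exons of Brip1os share 512 bases with Ints2 and 800 with Med13, both on the other strand. Ints2, a subunit of the Integrator complex, rose by 0.45 (adjusted p = 0.0301, edgeR), and Med13, a subunit of the Mediator kinase module, had a log2 fold change of 0.42 (adjusted p = 0.0924). The part of their reads in the Brip1os count was not tested.

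Further rising transcripts stand at or close to the start of their partner. Wdr83os (chromosome 8, 85080740 to 85082339, plus strand) is typed as protein coding and encodes a small membrane protein of the endoplasmic reticulum that helps newly made membrane proteins to fold. It stood at 18.9, 28.7 and 27.5 CPM in CON and at 60.5, 56.8 and 34.4 CPM in T + E2. The groups did not overlap, though T + E2 3 lay closer to the CON mice than to the other T + E2 mice. Wdr83os rose by 1.01 (SE 0.23, adjusted p = 0.0206, edgeR), while its partner Wdr83, a WD-repeat scaffold protein, was level at 13.4, 16.8 and 15.2 CPM against 17.4, 14.0 and 14.9 CPM (log2 fold change 0.03, adjusted p = 0.901). Of the 1031 exon bases of Wdr83os 539 are shared with Wdr83. Without CON 1, CON 3, T + E2 1 or T + E2 2 the adjusted p of Wdr83os was 0.0517, 0.0511, 0.0599 and 0.0746. With a replicate block it was 0.0503 (edgeR). Scaled by library totals alone, the log2 fold change of Wdr83os was 0.97, under the threshold of 1.

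Cep83os (chromosome 10, 94673493 to 94688613, minus strand) is typed as a bidirectional promoter lncRNA, and starts 177 bases from Cep83, which encodes a protein of the centriole's distal appendages. It stood at 16.0, 15.1 and 16.4 CPM in CON and 21.2, 19.8 and 21.7 CPM in T + E2. The groups were apart with little spread, but the rise was small, 0.40 on the log2 scale (SE 0.10, adjusted p = 0.0294, edgeR). Cep83 had a log2 fold change of 0.26 (SE 0.12, adjusted p = 0.166), with 9.27 to 10.2 CPM in CON and 11.5 to 11.8 CPM in T + E2, so its groups did not overlap either. The call for Cep83os was kept only without T + E2 2, and leaving out any other mouse gave an adjusted p of 0.065 to 0.1. It was also lost in DESeq2 (adjusted p = 0.0615) and with a replicate block (adjusted p = 0.0682, edgeR).

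Mkln1os (chromosome 6, 31366885 to 31398773, minus strand) overlaps the start of Mkln1, which encodes muskelin, a subunit of a ubiquitin ligase complex, by 39 bases. It was scarce, with 7, 9 and 5 counts in CON and 15, 26 and 15 counts in T + E2. All T + E2 mice were above all CON mice, and the transcript rose by 1.40 (SE 0.38, adjusted p = 0.036, edgeR). The partner rose as well, from 59.9 to 69.7 CPM in CON to 83.0 to 99.2 CPM in T + E2, by 0.46 (SE 0.11, adjusted p = 0.0199). The call for Mkln1os was lost without any 1 mouse (adjusted p of 0.0547 or above), in DESeq2 (adjusted p = 0.14), with no filter on low counts (0.055), and in limma on log2(FPKM + 0.1) (0.054) and log2(FPKM + 1) (0.0557). A replicate block lost the Mkln1os call too (adjusted p = 0.0572, edgeR). The call for Mkln1 was lost in both limma fits (adjusted p = 0.0751 and 0.0777) and without CON 3, T + E2 1 and T + E2 2 (0.07, 0.0541 and 0.0529).

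Of the transcripts that fell, the Tbx3 pair moved with its partner. Tbx3 encodes a T-box transcription factor with roles in limb, heart and gland development. Tbx3os1 (chromosome 5, 119570130 to 119671365, minus strand) overlaps its start by 697 bases, and Tbx3os2 (119685095 to 119691218, minus strand) lies just past its end. Tbx3os2 stood at 37.3, 31.3 and 33.5 CPM in CON and at 20.9, 17.8 and 21.9 CPM in T + E2. Tbx3os1 stood at 20.1, 15.7 and 18.4 CPM in CON and at 12.9, 8.28 and 9.68 CPM in T + E2. Tbx3 itself stood at 265, 281 and 296 CPM in CON and at 175, 141 and 173 CPM in T + E2. In all 3 rows every T + E2 mouse was below every CON mouse, and T + E2 2 was the lowest. Tbx3os2 fell by 0.75 (SE 0.12, adjusted p = 0.00363, edgeR). Tbx3os1 fell by 0.82 (SE 0.18, adjusted p = 0.0183) and Tbx3 by 0.79 (SE 0.11, adjusted p = 0.00225). Tbx3os2 shares no exon base with Tbx3, and Tbx3os1 shares 115 of 3167. The calls for Tbx3os2 and Tbx3 held without any 1 mouse. That for Tbx3os1 was lost without CON 1, CON 3, T + E2 2 or T + E2 3, at an adjusted p of 0.0527 to 0.0577.

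Ttc39aos1 (chromosome 4, 109403794 to 109406155, minus strand) lies upstream of Ttc39a and faces away, with 468 bases between the starts and no shared exon base. It stood at 22.9, 20.4 and 19.9 CPM in CON and at 13.6, 13.2 and 13.9 CPM in T + E2. The groups were apart and the T + E2 mice almost equal. It fell by 0.64 (SE 0.11, adjusted p = 0.00558, edgeR), and without any 1 mouse the adjusted p stayed between 0.0159 and 0.023. Ttc39a fell by 0.47 (SE 0.12, adjusted p = 0.0263), from 84.0 to 103 CPM in CON to 59.6 to 73.5 CPM in T + E2, a call that was lost without CON 2, CON 3, T + E2 1 or T + E2 2 (adjusted p 0.0693 to 0.0871).

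Rapgef4os3 (chromosome 2, 72244965 to 72248975, minus strand) lies inside Rapgef4, which encodes a guanine nucleotide exchange factor for Rap proteins that cAMP activates, and shares no exon base with it. The part of unspliced Rapgef4 RNA in its count was not tested. Rapgef4os3 was the most variable of the called transcripts, at 10, 37.5 and 24.9 CPM in CON and 7.89, 3.65 and 9.21 CPM in T + E2. The groups did not overlap, but CON 1 lay just above the highest T + E2 mouse. It fell by 1.81 (SE 0.49, adjusted p = 0.0364, edgeR). The call was kept without CON 1 only, at an adjusted p of 0.00889, and leaving out any other mouse gave 0.0591 to 0.11. Limma on log2(FPKM + 0.1) and log2(FPKM + 1) gave 0.0673 and 0.0672, and a replicate block in edgeR gave 0.093. Rapgef4 had a log2 fold change of -0.69 (SE 0.28, adjusted p = 0.123), at 7.68, 4.47 and 4.40 CPM in CON and 4.08, 3.29 and 2.87 CPM in T + E2. Its groups did not overlap.

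Hoxa11os was the most abundant member by mean FPKM (31.6 FPKM, counts scaled to gene length and library total) and took 28.8 to 45.2% of the members' counts in a mouse. Its partner Hoxa11 encodes a homeodomain transcription factor of the posterior HOXA cluster, which patterns limbs and the reproductive tract. Hoxa11os (chromosome 6, 52244393 to 52249799, plus strand) overlaps the start of Hoxa11 by 1418 bases, and 800 of its 3073 exon bases are shared. It stood at 226, 295 and 327 CPM in CON and at 175, 179 and 227 CPM in T + E2. The groups touched, at CON 1 and T + E2 3. Hoxa11os fell by 0.54 (SE 0.16, adjusted p = 0.0484, edgeR), just inside the threshold. Hoxa11 went the other way, at 15.1, 17.1 and 16.7 CPM in CON and 30.1, 24.1 and 23.2 CPM in T + E2. Its groups did not overlap, and it rose by 0.66 (SE 0.13, adjusted p = 0.0104). This was the only one of the 60 pairs with both rows tested in which both were called and moved in opposite directions. Without CON 2, CON 3, T + E2 1 or T + E2 2 the adjusted p of Hoxa11os was 0.12, 0.143, 0.143 and 0.143, while the call for Hoxa11 held without any 1 mouse. Limma on log2(FPKM + 0.1) and log2(FPKM + 1) gave an adjusted p of 0.0587 and 0.0573 for Hoxa11os.

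Across the 60 pairs with both rows tested, the log2 fold changes of transcript and partner had Pearson r = 0.28 and Spearman rho = 0.35, given as a description, since all pairs share the same 6 libraries and 1 partner can face several transcripts. The signs were alike in 41 pairs, with both above 0 in 18 and both below 0 in 23. No such count or correlation is given here for other opposite-strand pairs, so neither can be read as particular to these. Both rows were called in the same direction in 4 pairs (Mkln1os, Tbx3os1, Tbx3os2 and Ttc39aos1). The transcript alone was called in 5, the partner alone in 9 and neither in 41. The standard error of a transcript was larger, with a median of 0.29 against 0.13 for the partner.

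**Figure D3:**
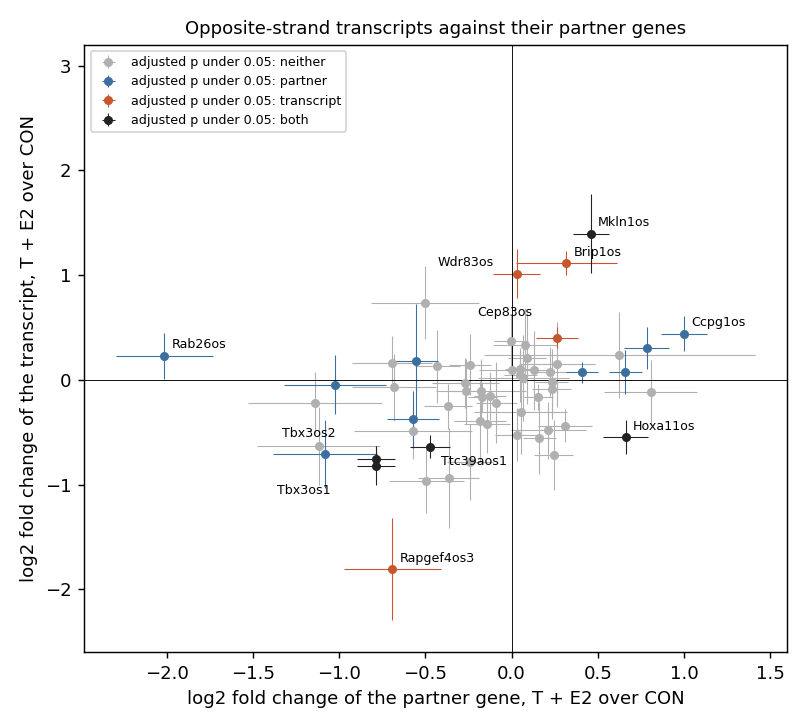
Log2 fold change of the transcript (vertical axis) against that of its partner gene (horizontal axis), T + E2 over CON, for 59 of the 60 pairs with both rows tested, with bars of 1 SE. Hoxa11os is the one pair called in both rows on opposite sides of 0, and Rab26os and Wdr83os lie near 0 on one axis and far from it on the other.

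By level, a transcript was usually the lower of the pair. The median ratio of mean FPKM, transcript to partner, was 0.334, with a range of 0.0109 to 40.9, and 15 of the 60 transcripts stood above their partner. Brip1os, with a mean FPKM of 7.69 against 0.188 for Brip1, marks the upper end. Rank on this scale depends on the gene length used. The length behind the deposited FPKM equalled the sum of all distinct annotated exons for 143 of 172 members with counts, so overlapping exons of different isoforms were added more than once, and in 13 the length exceeded the genomic span. Per base of merged exons the median ratio was 0.297 and again 15 transcripts stood above the partner. The edgeR comparisons of groups use counts and not this length, while a constant added to FPKM weighs more the lower the FPKM.

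Whether a transcript and its partner responded alike was measured within each mouse, as log2 of the ratio of their FPKM values (0.1 added to each). The ratio did not overlap between groups in 22 of the 60 pairs (36.7%), higher in T + E2 in 10 and lower in 12. Among all 1637 pairs of tested genes on opposite strands with overlapping spans, 34.6% did not overlap. Of the 60 pairs 42 have overlapping spans as well, and 13 of these (31%) did not overlap in ratio. The other 18, of a kind this background leaves out, gave 9. With 3 mice against 3 the exact two-sided permutation test of a single pair cannot give a p below 0.1. A limma fit of the same ratios, added after the data were seen, covered 1655 pairs, these 1637 and the 18 member pairs without overlapping spans. It called 6 of the 60 pairs, or 10% where 14.1% of the 1655 were called. That share includes the members and holds no other pairs without overlapping spans.

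The pair with the clearest change in ratio was Rab26os and Rab26, named here because of this result. Rab26 encodes a small GTPase of secretory granules and synaptic vesicles. Rab26os (chromosome 17, 24528248 to 24528744, plus strand) lies inside Rab26 without a shared exon base. Reads of unspliced Rab26 RNA could fall on it, and their part in its count was not tested. Rab26os stood at 2.18, 2.50 and 2.64 CPM in CON and 3.18, 2.56 and 2.87 CPM in T + E2, and its groups overlapped (log2 fold change 0.23, SE 0.22, adjusted p = 0.491, edgeR). Rab26 stood at 11, 14.3 and 16.2 CPM in CON and 4.84, 3.17 and 2.27 CPM in T + E2, groups far apart, and fell by 2.01 (SE 0.28, adjusted p = 0.00228). The log2 ratio went from 0.07 to 0.34 in CON to 1.97 to 2.77 in T + E2, a change of 2.13 (SE 0.24, adjusted p = 0.000911, limma).

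In Ccpg1os and Ccpg1, also named for its ratio, the starts lie 47 bases apart and face away from each other. Ccpg1 encodes a receptor for the turnover of endoplasmic reticulum by autophagy, and Ccpg1os is typed as protein coding. Ccpg1 stood at 83.5 to 96.7 CPM in CON and 149 to 204 CPM in T + E2 and rose by 1.00 (SE 0.13, adjusted p = 0.00181, edgeR). Ccpg1os stood at 7.22, 9.20 and 7.61 CPM in CON and 11.1, 12.4 and 9.14 CPM in T + E2, with overlapping groups and a log2 fold change of 0.44 (SE 0.17, adjusted p = 0.107). The ratio fell by 0.55 (SE 0.14, adjusted p = 0.034, limma), so Ccpg1os rose less than its divergent partner did, if at all.

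Other pairs called by their ratio have been described above. The ratio of Hoxa11os to Hoxa11 fell by 1.18 (SE 0.20, adjusted p = 0.0071). That of Wdr83os rose by 0.96 (SE 0.22, adjusted p = 0.0221) and that of Brip1os by 0.87 (SE 0.20, adjusted p = 0.0244, all limma). In the Tbx3 locus the ratio hardly moved, by -0.02 for Tbx3os1 (SE 0.17, adjusted p = 0.965) and by 0.04 for Tbx3os2 (SE 0.13, adjusted p = 0.9). For Ttc39aos1 it was -0.16 (SE 0.16, adjusted p = 0.546). With standard errors of this size a smaller difference in response could not have been detected.

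**Figure D4:**
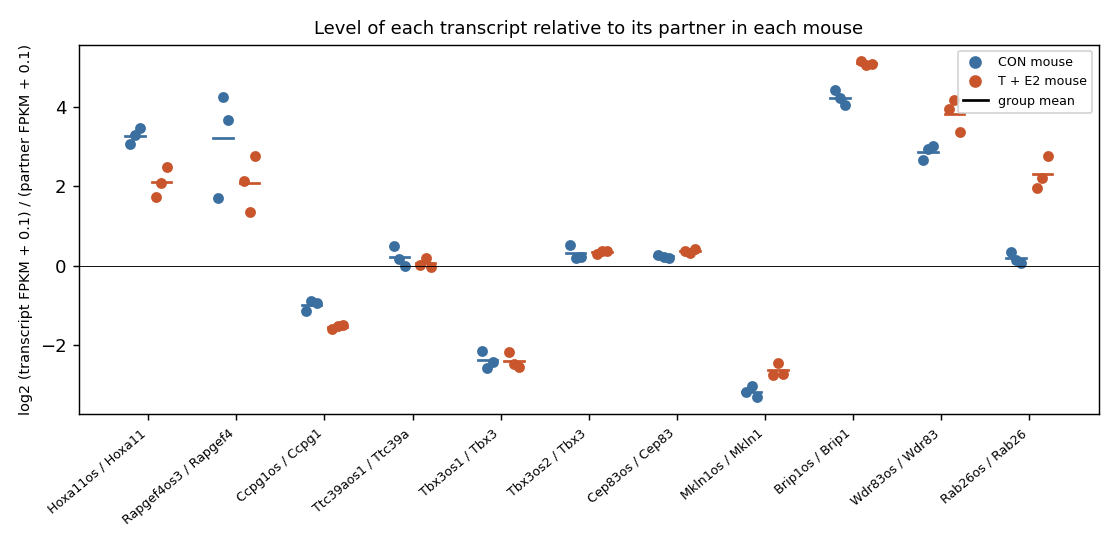
Log2 ratio of transcript to partner FPKM, each with 0.1 added (vertical axis), in every mouse for 11 pairs, with a bar at each group mean. The T + E2 mice lie above the CON mice for Rab26os, Wdr83os and Brip1os and below them for Hoxa11os and Ccpg1os, while the Tbx3 pairs overlap.

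Calls were spread over the positions. Transcripts upstream and facing away were called in 4 of 14 tested pairs (28.6%), 3 up and 1 down, and those that overlap the partner's start in 4 of 23 (17.4%), 2 up and 2 down. Among the 12 tested divergent pairs with starts within 1000 bases the count was 3. Rapgef4os3 was the one called of 9 tested inside the partner, and Tbx3os2 the one of 5 downstream. None of 8 that overlap the partner's end and none of 3 that span the whole partner passed, and these classes are too small to compare with the 19.6% of all genes. Of the 22 tested transcripts without a shared exon base 6 were called, and of the 39 with shared exon bases 4.

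Among the abundant transcripts that did not pass, most had a level close to that of the controls. Epb41l4aos, second by mean FPKM at 22.7, stood at 17.6, 16.8 and 23.1 CPM in CON and 12.7, 14.1 and 15.8 CPM in T + E2. Its groups did not overlap, with a log2 fold change of -0.44 (SE 0.16, adjusted p = 0.0885, edgeR), while its partner Epb41l4a had one of 0.31 (adjusted p = 0.204). Slc7a6os, a protein-coding row, stood at 20.8 to 22.5 CPM in CON and 21.7 to 24.8 CPM in T + E2 (log2 fold change 0.07, SE 0.10, adjusted p = 0.661). Its partner Slc7a6, a cationic and neutral amino acid transporter, rose by 0.41 (SE 0.09, adjusted p = 0.0178, edgeR). This call was lost without CON 2 (adjusted p = 0.0587) or CON 3 (adjusted p = 0.065) and with a replicate block (adjusted p = 0.0612).

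Tmem147os starts 45 bases from Tmem147, which encodes a membrane protein of the endoplasmic reticulum, and faces away from it. Tmem147 rose by 0.78 (SE 0.13, adjusted p = 0.00507, edgeR), from 42.4 to 53.7 CPM in CON to 70.1 to 90.1 CPM in T + E2, without overlap. Tmem147os stood at 16.4, 9.59 and 11.2 CPM in CON and 16.0, 16.1 and 13.7 CPM in T + E2, with overlapping groups and a log2 fold change of 0.30 (SE 0.20, adjusted p = 0.319). Cebpzos (log2 fold change -0.16, SE 0.12, adjusted p = 0.368) and Fam120aos (0.11, SE 0.15, adjusted p = 0.66) complete the 10 highest by FPKM, and the groups of both overlapped. Their partners had log2 fold changes of 0.16 (Cebpz, SE 0.09, adjusted p = 0.238) and 0.05 (Fam120a, SE 0.09, adjusted p = 0.737).

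On chromosome 2, 2 transcripts of the same strand had large but uncalled differences. Gad1os (70489940 to 70563357, minus strand) spans the whole of Erich2os (70503433 to 70509199, minus strand), without a shared exon base. Gad1os had 29, 14 and 28 counts in CON and 7, 12 and 12 in T + E2, a log2 fold change of -1.18 (SE 0.38, adjusted p = 0.0663, edgeR). Erich2os had 47, 30 and 48 counts in CON and 17, 19 and 27 in T + E2, a log2 fold change of -0.97 (SE 0.31, adjusted p = 0.0601). In both every T + E2 mouse was below every CON mouse. Gad1, which encodes the enzyme that makes the neurotransmitter GABA, had at most 3 counts in any mouse and was not tested. Erich2 had a log2 fold change of -0.49 (SE 0.22, adjusted p = 0.152). Without CON 2 the adjusted p of Gad1os was 0.0415.

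Dhrs13os had 16, 18 and 13 counts in CON and 10, 3 and 11 in T + E2, with a log2 fold change of -0.94 (SE 0.48, adjusted p = 0.207, edgeR). Zfp335os had 49, 25 and 23 counts in CON and 16, 19 and 21 in T + E2, with one of -0.78 (SE 0.37, adjusted p = 0.173). The groups of both did not overlap. Their partners had log2 fold changes of -0.37 (Dhrs13, SE 0.18, adjusted p = 0.186) and -0.24 (Zfp335, SE 0.13, adjusted p = 0.235). The remaining tested transcripts had log2 fold changes between -0.72 (H3f3aos) and 0.74 (Dnm3os), none with an adjusted p under 0.05.

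Of the 52 transcripts with over 3 counts in some mouse that were not tested, none had more than 71 counts over the 6 mice. The highest totals were those of Ctcflos, Abhd11os, Dnmt3bos and Mccc1os. Mccc1os had 5, 6 and 4 counts in CON and 14, 10 and 14 in T + E2. Nckap5los had 3, 1 and 0 against 8, 8 and 18. Egfros, which faces the gene of the epidermal growth factor receptor, had 2, 3 and 4 against 11, 9 and 7. In these, picked after their values were seen, each T + E2 mouse had more counts than each CON mouse. The same held for Has2os, Uckl1os and Pramef12os, which makes 6 of the 52 (11.5%), where 7.86% of all 3105 untested rows with over 3 counts did so. In Dtnbos and Mettl5os each T + E2 mouse had fewer, 2 of 52 (3.85%) against 6.63%. None of the 52 was tested in the fit reported here. With other filters or tools Nckap5los was called higher with no filter on low counts (adjusted p = 0.037, edgeR), in DESeq2 (adjusted p = 0.0454) and in limma on log2(FPKM + 0.1) and on log2(FPKM + 1) (adjusted p = 0.0293 and 0.0476). Pramef12os was called higher in both limma fits (adjusted p = 0.0224 and 0.0167), and Mettl5os lower in the first (adjusted p = 0.0489). The others of the 52 were Zmiz1os1, Rbm3os, Etaa1os, Arhgap27os1, Il1bos, Rapgef4os2, Med9os, Sap30bpos, Proscos, Zfp652os, Irx3os, Ptgs2os, Rapgef3os2, Dhx58os, Kcnab3os, Gssos2, Emx2os, Kank4os, Mecomos, Ift88os, Runx2os1, Tvp23bos, Plet1os, Arhgap27os3, Taco1os, Gimap1os, Bloc1s6os, Arf4os, Sox5os3, Unc45bos, Hopxos, Plxna4os1, Igf2os, Fhad1os1, Pcsk2os1, Bcas3os2, Fcnaos, Sox5os2, Bcas1os2, Rsf1os2 and Ppp1r3fos.

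Partner genes changed about as often as other genes. Of 196 tested, 42 (21.4%) had an adjusted p under 0.05 against the background of 19.6%, and 15 (7.65%) also a log2 fold change beyond 1 in size against 7.64% (edgeR). The 6 that rose were Sox5, Pramef12, Igf1, Peak1, Fcna and Ccpg1, and the 9 that fell were Cyp4x1, Rab26, Speer4c, Frmpd1, Nell1, Plxna4, Foxd2, Uchl1 and Grin1. Only Ccpg1os, Rab26os, Foxd2os and Grin1os among the transcripts facing them were tested, and none was called. Sox5, a SOX family transcription factor, rose by 2.62 (SE 0.25, adjusted p = 0.000416) from 1.64 to 2.65 CPM to 9.80 to 14.7 CPM. Across the strand from it, Sox5os1 had no count, Sox5os2 at most 4 and Sox5os3 0, 0 and 0 counts in CON and 0, 11 and 3 in T + E2. Igf1, which encodes insulin-like growth factor 1, rose by 1.30 (SE 0.19, adjusted p = 0.00277) from 44.6 to 65.2 CPM to 110 to 160 CPM, and Igf1os had 2 counts in CON 2 and none in the other mice. At this depth a response of these transcripts was not detectable.

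Other rows of the antisense type served as a further comparison. Of 2065 such rows outside the members 215 were tested and 37 (17.2%) had an adjusted p under 0.05, 18 higher and 19 lower, with a median log2 fold change of -0.05. With a log2 fold change beyond 1 in size as well there were 31 (14.4%), against 5 of 61 members (8.2%) and 7.64% of all genes. Among the 42 tested members of the antisense type itself 4 (9.52%) had an adjusted p under 0.05. The differences between these shares were not tested. The 3 rows named with the ending as and the 5 named with the ending it that have a partner held no call, with 2 and 0 tested.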

How the data were processed

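Prostate RNA of 3 CON and 3 T + E2 mice was sequenced from libraries of the TruSeq RNA kit. The submitters' processing notes name TopHat, Bowtie2 and HTSeq. Versions, the annotation release and the strand setting of the counter are not given in the sources used here. The authors deposited 1 table of whole-number counts per gene and of FPKM values, which they computed from these counts, the library total and a gene length. Groups came from the sample titles.

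Counts were tested in edgeR 4.0.16 (R 4.3.3) with filterByExpr (minimum count 10, minimum total 15), TMM scaling, the quasi-likelihood test on group alone and Benjamini-Hochberg adjustment over all 15580 tested genes. The paper's methods name DESeq2, which was an alternative here (version 1.42.0), with limma 3.58.1 on log2 FPKM, another minimum count, other scalings, a replicate block and each mouse left out. The fit was first tested on simulated data. Starts, ends, overlaps of spans and position classes came from the deposited coordinates. Strands, types and exon bases came from GENCODE M21 on GRCm38, since no genome file was used. Start and end were the same in both for 274 of the 290 transcripts and 223 of the 249 partners. Library totals of 14816146 to 16555549 counts set the precision, and floors of 3 counts cover counting error only. Text names all transcripts with an adjusted p under 0.05, the 10 with the largest fold change, the 10 with the highest FPKM and their partners. One transcript and its partner are not reported here. Members, lists and motifs were chosen with earlier results of these data known.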

Additional observations from a re-analysis of the deposited data

How the results depend on the processing

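Among the named transcripts and partners no call turned its direction. Of 498 values under other settings 439 kept their side of the threshold, 56 lost the call and 3 gained it, and 8 values called in neither fit changed sign. This tally pools 36 transcripts and partners, many of them not called in the reported fit and so unable to lose a call. Called transcripts differed widely. Brip1os kept its call in 8 of 8 other fits on all mice and in 6 of 6 with a mouse left out, Mkln1os in 2 of 7 and 0 of 6. Transcripts with an adjusted p under 0.05 numbered 10 and fell to 6 with the replicate block, and to 4 to 6 without 1 mouse. The shares of all genes called under these settings are not set beside the counts here. Brip1os, Tbx3os2 and Ttc39aos1 stayed called without any 1 mouse. Transcripts with a log2 fold change beyond 1 as well numbered 5, with 3 at a minimum count of 30 (29 transcripts tested), 2 with the replicate block, 0 in limma on log2(FPKM + 1) and 1 to 3 without 1 mouse. A pseudocount of 1 shrinks fold changes of low rows by construction. Partner genes numbered 15, with 9 in limma on log2(FPKM + 0.1), 4 on log2(FPKM + 1) and 10 to 15 without 1 mouse. Pairs whose ratio did not overlap numbered 22, with 13 of 28 at a minimum count of 30, 6 by limma and 23 to 28 without 1 mouse. Leaving out a mouse can only add such pairs, since fewer values are left to overlap, so that rise shows no robustness. For the minimum count of 30 and for mice left out, the share over all opposite-strand pairs is not given here. Gad1os gained the call without CON 2 and Erich2os in both limma fits. Among transcripts not tested in the reported fit, Nckap5los, Pramef12os and Mettl5os were called under other filters or tools. Other causes were not tested.

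Mice of both groups carry the numbers 1 to 3, but they are separate animals, and the deviations of same-numbered mice from their group means correlated at -0.0516, 0.0275 and 0.0463, so the numbers were not taken as pairs. Reads on shared exon bases cannot be assigned to a strand here. Nor can reads of unspliced partner RNA be told apart on a transcript that lies inside its partner. A median of 29.7 counts limits what the tested transcripts can show.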
